A study of Homo sapiens with 8 samples.

Results

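FN1, LAMC1, LAMB1, LAMB2, LAMB3, LAMA5, COL4A1, COL4A2 and AGRN encode fibronectin, 5 laminin chains, the main pair of collagen IV chains and agrin. They are 9 of the 58302 genes in the count table, found by matching each Ensembl identifier to its GENCODE 44 symbol. The set was chosen with this contrast known, on the opposite differences of FN1 and LAMC1 between the groups. The values and the calls of the members are therefore given as a description, and no p-value of a member is given. RNA was read in A549, a human lung adenocarcinoma cell line, after transient transfection with an siRNA against APE1, the DNA repair enzyme encoded by APEX1 (labelled siAPEX1, 4 libraries), or with a scramble siRNA (labelled siCTRL, 4 libraries). Each group received a single siRNA sequence, and no other treatment or genotype separates the groups. The study calls the libraries of a group biological replicas, but the labels name no separate cultures, so the p-values measure the spread between these libraries, which may be technical in part. The libraries came from a kit for small RNA, modified so that primary miRNA transcripts are also read.

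The extracellular matrix is the protein network that cells secrete and attach to. Fibronectin is assembled into fibrils through integrin receptors. Laminins are trimers of an alpha, a beta and a gamma chain. They form a sheet under epithelia, the basement membrane, together with the collagen IV network, nidogens and the proteoglycans perlecan and agrin. LAMC1 is the gamma chain of most laminins, and pairs with LAMB1 or LAMB2 and an alpha chain such as LAMA5. LAMB3 is instead the beta chain of laminin-332, the laminin of epithelial anchoring sites, whose alpha chain is LAMA3. COL4A1 and COL4A2 assemble with each other in the collagen IV trimer found in nearly all basement membranes.

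APEX1, the targeted gene, had 51, 61, 64 and 47 counts in the libraries labelled siCTRL and 21150, 19470, 27916 and 20767 in those labelled siAPEX1. After scaling, reads on this gene were 627-fold higher in the latter (adjusted p = 8.97e-42 in edgeR's quasi-likelihood test). The label names an siRNA against this gene, so the direction is opposite to its aim, but the label states no level of mRNA. The libraries came from a kit for small RNA, and whether these reads are of APEX1 mRNA was not tested. The cause of the difference was not tested either. Each direction below is therefore that of the libraries labelled siAPEX1 against the libraries labelled siCTRL. The libraries held 1348386 to 1949886 reads on genes, and the largest library labelled siAPEX1 (1619500 reads) was smaller than the smallest labelled siCTRL (1639796 reads). Protein-coding genes held 20.5% to 21.7% of the reads in the siCTRL libraries and 16.9% to 18.1% in the siAPEX1 libraries. The 9 members together held 449 to 632 reads per siCTRL library and 276 to 321 per siAPEX1 library, so the lower members rest on few reads. Of 9 epithelial markers 5 passed the filter on low counts, and the 9 summed to 569 to 696 CPM (counts per library size, adjusted by edgeR's TMM factors and put on a common scale) in the siCTRL libraries against 222 to 288 CPM in the siAPEX1 libraries. The keratins KRT7, KRT8, KRT18 and KRT19 fell and CDH1, the adhesion protein E-cadherin, rose at an adjusted p of at most 0.05 in edgeR. Markers of other cell types were low, and none passed the filter. No read fell on 5 of 9 alveolar type 2 markers and 5 of 6 endothelial markers. The alveolar type 2 markers and the 9 fibroblast markers each summed to at most 9.96 CPM, and 6 leukocyte markers to at most 6.30 CPM. The alveolar type 2 marker ABCA3 stood at 6.16 CPM in the siCTRL libraries and 2.58 CPM in the siAPEX1 libraries. In bulk RNA, fewer cells of a type and less RNA per cell cannot be told apart, and the part of the keratin difference in the values below was not tested.

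The promoters of the pair that set the choice, and the stretch shared by the collagen IV pair, are shown because the first pair differed in opposite directions and the second is read from a single stretch of DNA. They are the 250 bases before the RefSeq start of FN1 (GRCh38.p14, chr2:215436069-215436318, minus strand) and of LAMC1 (chr1:183023170-183023419, plus strand), and the 126 bases between the divergent starts of COL4A1 and COL4A2 (chr13:110307158-110307283, shown on the plus strand, the strand of COL4A2). Capitals mark the motifs searched on both strands, the cyclic AMP response element TGACGTCA, the AP-1 site TGANTCA, the CCAAT box CCAAT and the GC box GGGCGG, and GC boxes that overlap are joined.
FN1: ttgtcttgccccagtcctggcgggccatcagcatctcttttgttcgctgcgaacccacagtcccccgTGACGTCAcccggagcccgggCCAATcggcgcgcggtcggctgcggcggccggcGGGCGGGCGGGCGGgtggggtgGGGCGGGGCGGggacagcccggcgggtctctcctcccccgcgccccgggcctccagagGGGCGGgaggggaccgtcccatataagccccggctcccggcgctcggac
LAMC1: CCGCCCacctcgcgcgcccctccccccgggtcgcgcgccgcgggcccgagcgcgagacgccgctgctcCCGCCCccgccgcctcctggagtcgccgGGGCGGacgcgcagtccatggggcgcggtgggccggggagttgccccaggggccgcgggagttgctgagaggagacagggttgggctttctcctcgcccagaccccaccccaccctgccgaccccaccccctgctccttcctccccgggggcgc
COL4A1 and COL4A2: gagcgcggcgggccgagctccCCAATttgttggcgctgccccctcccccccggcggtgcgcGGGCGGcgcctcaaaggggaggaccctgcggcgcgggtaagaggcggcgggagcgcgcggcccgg
The FN1 promoter held 1 cyclic AMP response element, 1 CCAAT box and 6 GC boxes. The LAMC1 promoter held 3 GC boxes and none of the other motifs. As a background, 27305 RefSeq promoters of this length were searched, the first listed for each gene. Of these, 1.77% held the cyclic AMP response element, 6.60% the AP-1 site, 33.0% the CCAAT box and 42.3% the GC box. The shared collagen IV stretch held 1 CCAAT box and 1 GC box, and 80.2% of its bases were G or C. These matches are descriptions of letters, not sites of binding. RefSeq promoters were found for 8 of the 9 members, all but AGRN.

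In GRCh38 the fibronectin gene FN1 (ENSG00000115414) lies at chr2:215360440-215436073 on the minus strand. The gamma chain gene LAMC1 (ENSG00000135862) lies at chr1:183023420-183145592 on the plus strand. The beta chain genes LAMB1 (ENSG00000091136, chr7:107923799-108003213), LAMB2 (ENSG00000172037, chr3:49121114-49133118) and LAMB3 (ENSG00000196878, chr1:209614870-209652425) and the alpha chain gene LAMA5 (ENSG00000130702, chr20:62307955-62367312) are all on the minus strand. COL4A1 (ENSG00000187498, chr13:110148963-110307157, minus strand) and COL4A2 (ENSG00000134871, chr13:110305812-110513209, plus strand) stand head to head. AGRN (ENSG00000188157) lies at chr1:1020120-1056118 on the plus strand. The strand used in counting is not given in the sources used here. How reads in exons shared with antisense neighbours were counted is therefore not known. Exons of other genes cover 2.60% of the exonic bases of LAMB1 (300 bases of DLD among them), 2.54% of those of LAMA5 (244 bases of ADRM1) and 3.74% of those of AGRN. They cover none in FN1, LAMC1, LAMB2 or COL4A1.

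Fibronectin had the largest difference of the members. FN1 had 192, 192, 191 and 146 counts in the 4 siCTRL libraries and 33, 28, 32 and 32 in the 4 siAPEX1 libraries. Every siAPEX1 library lay far below every siCTRL library, and the 4 siAPEX1 libraries lay close to each other. After scaling, FN1 stood at 89.7 ± 6.79 CPM (SD, n = 4) against 24.6 ± 2.09 CPM, 3.65-fold lower in the siAPEX1 libraries, with a log2 fold change of -1.87 (SE 0.132). With library size alone in place of TMM factors the log2 fold change was -2.21, and the range over all 15 alternatives was -2.21 to -1.81.

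**Figure D1:**
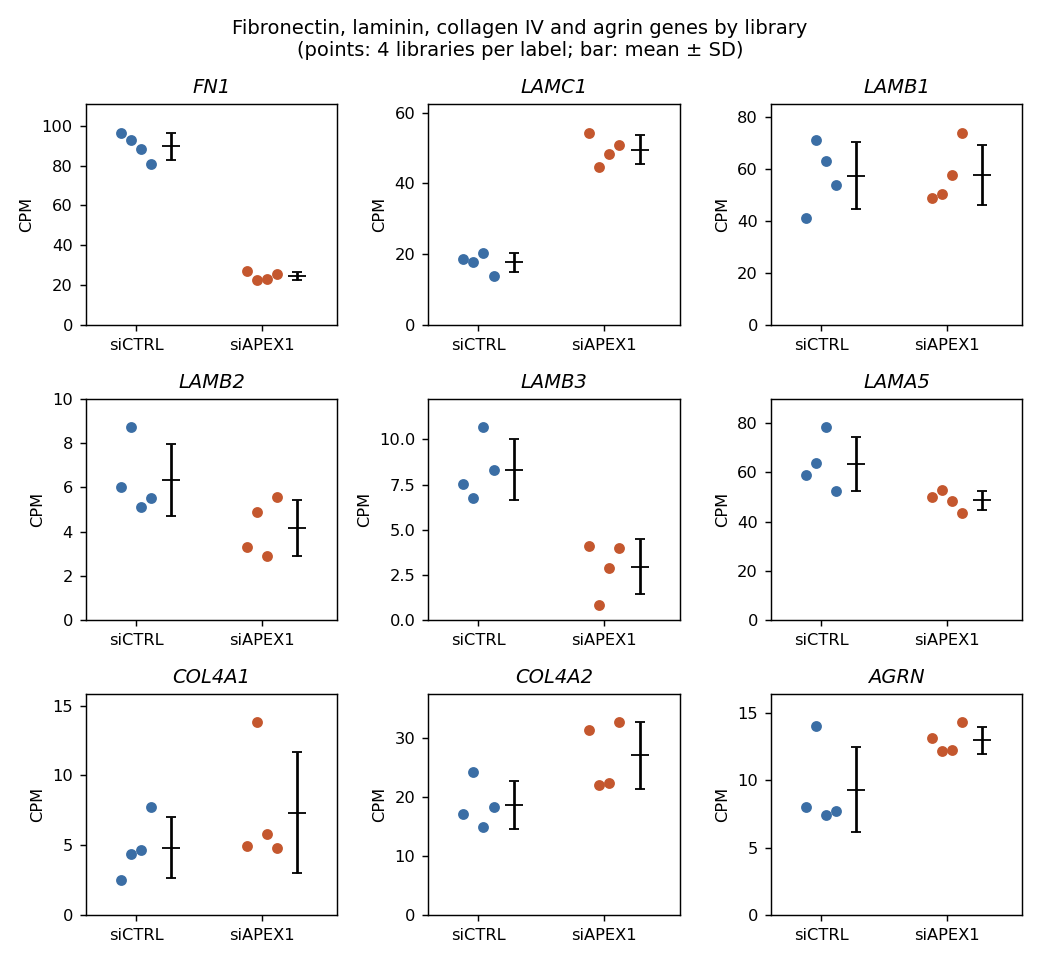
CPM of the 9 genes in each library (vertical axes, each from 0), with the 4 siCTRL libraries in blue, the 4 siAPEX1 libraries in orange and the mean ± SD in black. FN1 and LAMB3 are lower in every siAPEX1 library than in every siCTRL library, LAMC1 is higher, and the other 6 genes overlap between the groups.

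Among the laminin chains, the gamma chain LAMC1 differed the other way. It had 37, 37, 44 and 25 counts in the siCTRL libraries and 66, 55, 67 and 64 in the siAPEX1 libraries, so that each siAPEX1 library had more reads although it was the smaller library. The means were 17.7 ± 2.77 CPM and 49.5 ± 4.10 CPM (n = 4 each), 2.77-fold higher in the siAPEX1 libraries (log2 fold change 1.47, SE 0.150). Over the 15 alternatives the log2 fold change of LAMC1 lay between 1.13, with library size alone, and 1.55.

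The beta chains did not follow LAMC1. LAMB1, its usual partner, had 82, 147, 136 and 97 counts in the siCTRL libraries and 59, 62, 80 and 93 in the siAPEX1 libraries. The scaled groups overlapped almost wholly, at 57.3 ± 12.9 CPM and 57.6 ± 11.5 CPM (n = 4 each). The log2 fold change of LAMB1 was 0.01 (SE 0.141), and with library size alone it was -0.34, also the median over all genes under that scaling. LAMB2 had 12, 18, 11 and 10 counts against 4, 6, 4 and 7, or 6.35 ± 1.63 CPM against 4.15 ± 1.27 CPM. LAMB2 did not pass the filter on low counts, and 1 siAPEX1 library (5.56 CPM) lay within the siCTRL range. LAMB3, the beta chain of laminin-332, had 15, 14, 23 and 15 counts against 5, 1, 4 and 5. These groups did not overlap, at 8.32 ± 1.68 CPM and 2.95 ± 1.53 CPM, 2.79-fold lower in the siAPEX1 libraries (log2 fold change -1.48, SE 0.369). With 5 counts or fewer in each siAPEX1 library, LAMB3 had the largest SE of the fitted members, and without siAPEX1 replicate 2 (1 count) the log2 fold change was -1.16. LAMB3 passed the filter only through its siCTRL libraries, and was not tested where every library had to hold at least 10 counts.

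LAMA5, the alpha chain of laminin-511 and laminin-521, had 117, 132, 169 and 95 counts in the siCTRL libraries and 61, 65, 67 and 55 in the siAPEX1 libraries. The means were 63.4 ± 11.0 CPM and 48.7 ± 3.83 CPM (n = 4 each), and the groups touched, with 52.6 CPM in the lowest siCTRL library and 52.8 CPM in the highest siAPEX1 library. The log2 fold change was -0.39 (SE 0.129), and without siCTRL replicate 3, the highest library, it was -0.27. The 3 chains of a LAMA5, LAMB1 and LAMC1 trimer thus differed by -0.39, 0.01 and 1.47 on the log2 scale.

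The collagen IV pair was read at low depth. COL4A1 had 5, 9, 10 and 14 counts in the siCTRL libraries and 6, 17, 8 and 6 in the siAPEX1 libraries, and did not pass the filter. At 4.81 ± 2.17 CPM and 7.32 ± 4.34 CPM (n = 4 each) its groups overlapped, and siAPEX1 replicate 2 alone stood at 13.8 CPM, above the other 7 libraries. COL4A2 had 34, 50, 32 and 33 counts against 38, 27, 31 and 41. The means were 18.6 ± 4.0 CPM and 27.0 ± 5.68 CPM, and siAPEX1 replicates 2 and 3 (21.9 and 22.3 CPM) lay within the siCTRL range, whose highest library was replicate 2 (24.2 CPM). The log2 fold change of COL4A2 was 0.53 (SE 0.184), and with library size alone it was 0.19.

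AGRN, the proteoglycan agrin that binds laminin and organises the neuromuscular synapse, had 16, 29, 16 and 14 counts in the siCTRL libraries and 16, 15, 17 and 18 in the siAPEX1 libraries. The siAPEX1 libraries were close together at 13.0 ± 0.991 CPM, and the siCTRL mean of 9.31 ± 3.16 CPM was set in part by replicate 2 at 14.0 CPM, which lay within the siAPEX1 range. The log2 fold change of AGRN was 0.47 (SE 0.248), 0.74 without siCTRL replicate 2 and 0.13 with library size alone.

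Of the 9 members, 7 passed the filter on low counts, with log2 fold changes from -1.87 to 1.47 and a median of 0.01, beside a median of -0.00347 over all 5368 genes tested. At an adjusted p of at most 0.05 in edgeR, 2 members (LAMC1 and COL4A2) were higher, where 15.9% of all genes tested were, and 3 (FN1, LAMB3 and LAMA5) were lower, where 15.8% were. With a second threshold of 1 on the size of the log2 fold change, 1 member was higher (background 3.60%) and 2 were lower (background 5.68%). The groups did not overlap for 1 member above (background 14.0%) and 2 below (background 14.9%). LAMB3, among the members counted as lower, passed the filter only through its siCTRL libraries. The choice of members used this contrast, so nothing is read from these counts. The calls of COL4A2 and LAMA5 changed with the tool and with single libraries, and that of COL4A2 also with the scaling. LAMB1 was called lower with library size alone (-0.34) and in no other setting. COL4A2 was no longer called with library size alone (1 member higher and 4 lower), with either other filter, with DESeq2, or without siCTRL replicate 1 (log2 fold change 0.49), siCTRL replicate 3 (0.43), siAPEX1 replicate 1 (0.48) or siAPEX1 replicate 4 (0.45). LAMA5 was no longer called with DESeq2 or without siCTRL replicate 3 (-0.27), siAPEX1 replicate 3 (-0.36) or siAPEX1 replicate 4 (-0.31), and AGRN was called higher without siCTRL replicate 2 (0.74).

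**Figure D2:**
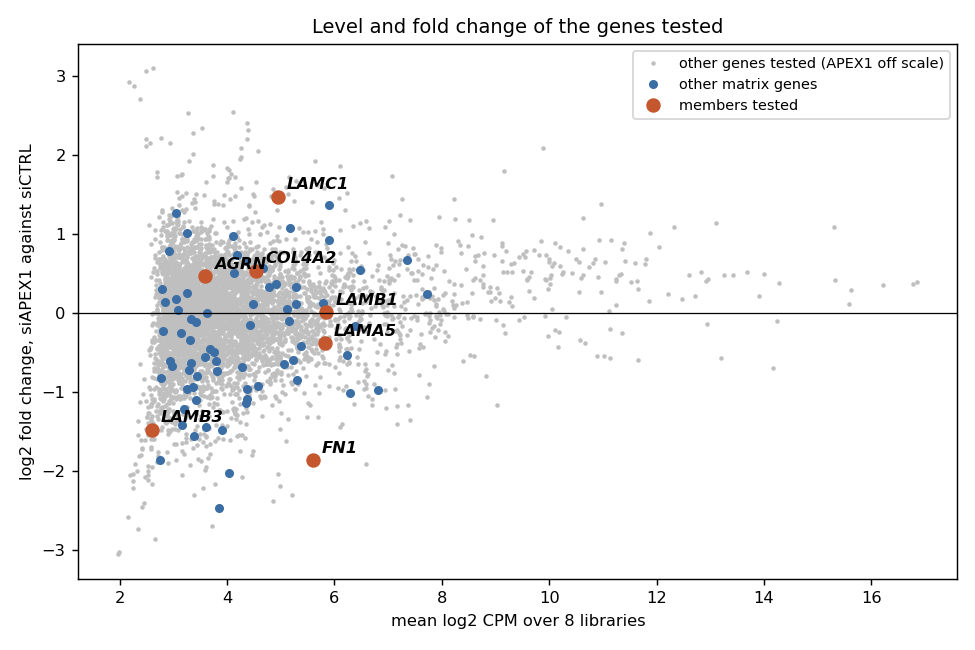
Log2 fold change, siAPEX1 against siCTRL (vertical axis), against mean log2 CPM over the 8 libraries (horizontal axis) for the genes tested, with APEX1 off the scale. The 7 members that passed the filter are labelled in orange and the 69 other matrix genes are in blue, with FN1 at -1.87 and LAMC1 at 1.47.

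Levels of different genes were compared as CPM per kb of merged exons. In the siCTRL libraries FN1 came first with 5.21 ± 0.394 CPM per kb (n = 4), followed by LAMA5 with 4.44 ± 0.767, LAMB1 with 3.08 ± 0.692, LAMC1 with 2.09 ± 0.328 and LAMB3 with 1.79 ± 0.361 CPM per kb. Each of these overlapped its neighbour in the order. A gap separated LAMB3, whose lowest library had 1.46 CPM per kb, from COL4A2 at 0.965 ± 0.208, LAMB2 at 0.924 ± 0.237 and AGRN at 0.865 ± 0.294 CPM per kb, which overlapped each other. COL4A1 came last with 0.328 ± 0.148 CPM per kb, below every library of AGRN.

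In the siAPEX1 libraries the order was another. LAMC1 came first with 5.86 ± 0.485 CPM per kb, and its lowest library (5.29) lay above the highest of LAMA5 (3.69). LAMA5 with 3.41 ± 0.268 and LAMB1 with 3.10 ± 0.620 CPM per kb overlapped. FN1 came next with 1.43 ± 0.122 CPM per kb, below every library of LAMB1, and overlapped COL4A2 with 1.40 ± 0.295 CPM per kb, which overlapped AGRN with 1.21 ± 0.0921. LAMB3 with 0.634 ± 0.328, LAMB2 with 0.605 ± 0.185 and COL4A1 with 0.499 ± 0.296 CPM per kb overlapped each other at the low end. The order depended on the length used. Per kb of the canonical transcript, a length added after the data were seen, LAMB1 was close to FN1 in the siCTRL libraries (10.1 and 10.7 CPM per kb). COL4A2 (2.89 CPM per kb) then stood above LAMC1 (2.23) and LAMB3 (2.07) and overlapped both, so the gap between LAMB3 and COL4A2 did not hold. LAMB1 stood above LAMC1 in the siAPEX1 libraries (10.2 and 6.25 CPM per kb). COL4A2 (lowest siAPEX1 library 3.40) also lay above FN1 (highest siAPEX1 library 3.24), so the overlap of FN1 and COL4A2 did not hold.

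A ratio of 2 genes within a library does not depend on how libraries are scaled. FN1 had 4.34 to 5.84 reads for each LAMC1 read in the siCTRL libraries and 0.478 to 0.509 in the siAPEX1 libraries. The mean log2 ratio of FN1 to LAMC1 was 2.34 ± 0.172 (SD, n = 4) against -0.999 ± 0.0395, a difference of -3.34, and the 2 sets of libraries lay far apart. The log2 ratio of LAMB1 to LAMC1 was 1.67 ± 0.387 against 0.20 ± 0.287, a difference of -1.47, also without overlap. The log2 ratio of COL4A2 to COL4A1 was 1.97 ± 0.671 against 1.95 ± 0.930, a difference of -0.03 that was far smaller than the spread between libraries. With 5 to 17 COL4A1 reads per library, a change of this ratio within that spread was not detectable.

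**Figure D3:**
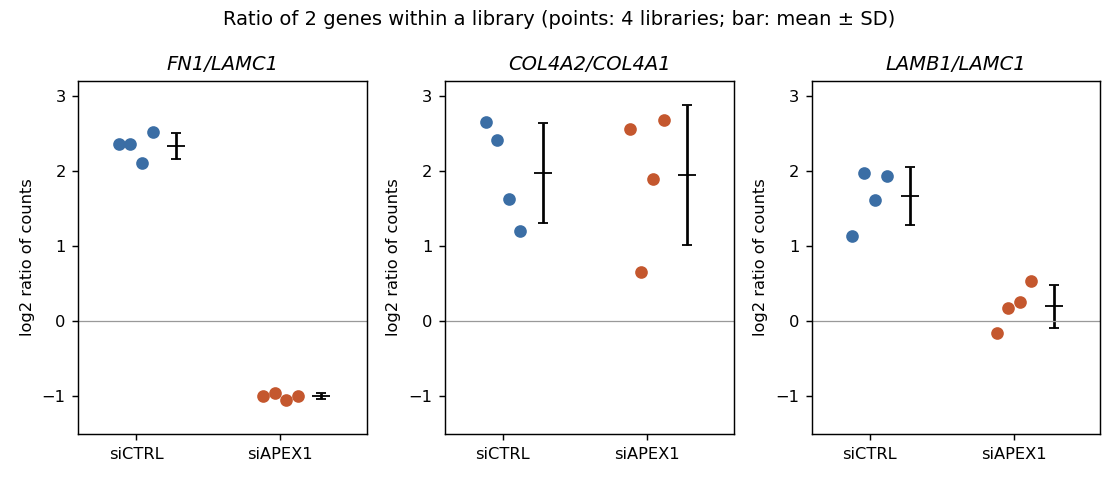
Log2 ratio of the counts of 2 genes in each library (vertical axis), with 4 siCTRL libraries in blue, 4 siAPEX1 libraries in orange and the mean ± SD in black. The ratio of FN1 to LAMC1 goes from 2.34 to -0.999 and that of LAMB1 to LAMC1 from 1.67 to 0.20, while that of COL4A2 to COL4A1 overlaps between the groups.

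The genes whose log2 CPM followed FN1 most closely over the 8 libraries were KRT19 (Pearson's r = 0.995), PDIA4 (0.994), NUCB2 (0.994), KRT81 (0.991) and HSP90B1 (0.991). KRT19 and KRT81 are keratins, and PDIA4 and HSP90B1 are chaperones of the endoplasmic reticulum, where secreted proteins fold. Their log2 fold changes were -2.31, -1.92, -1.32, -0.90 and -1.17 in the same order. For LAMC1 they were TFPI2 (0.988), a secreted protease inhibitor found in matrix, HMOX1 (0.986), which degrades heme, AREG (0.984), a ligand of the EGF receptor, ASPH (0.983) and the membrane protease ADAM9 (0.982). Their log2 fold changes were 1.62, 1.74, 1.05, 0.85 and 0.54. The 8 libraries form 2 groups, so a large r reflects in part the difference between the groups. Among 4863 protein-coding genes, 290 had an r above 0.9 with FN1 and 186 with LAMC1.

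The other genes of the matrix were taken from 7 lists holding 194 genes and no member, of which 69 passed the filter and 27 had no read in any library. The lists were chosen with earlier results of these data known, so their counts and p-values are given as a description. Of the 69, 11 rose and 27 fell at an adjusted p of at most 0.05 in edgeR, adjusted over all genes tested, and 31 did neither. All genes tested gave 15.9% higher and 15.8% lower, and protein-coding genes 12.5% and 15.9%. Past a log2 fold change of 1 in size, 4 rose and 12 fell, where 3.60% of all genes tested were higher and 5.68% lower (2.69% and 5.75% of protein-coding genes). The median log2 fold change of the 69 was -0.34, against -0.03 over protein-coding genes. With library size alone, which moved the median of all genes to -0.34, 6 were higher and 38 lower. Genes with few counts in 1 group can pass the filter through the other group alone. With at least 10 counts in every library 37 were tested, and 9 were higher and 14 lower. Over all genes 1192 of 3147 were then called. Of the genes called and named below, FBN2, LTBP1, FKBP10, P3H3, PLAU, PLAUR, SERPINE2, FURIN, CD47, DDR1 and SDC1 passed the main filter only through their siCTRL libraries. COL4A4 and P3H2 passed it only through their siAPEX1 libraries. None of these genes was tested with at least 10 counts in every library, and their entry to the test favoured the direction found. All 38 genes called kept their sign over the alternatives, and 26 kept their call in every alternative in which they were tested.

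**Figure D4:**
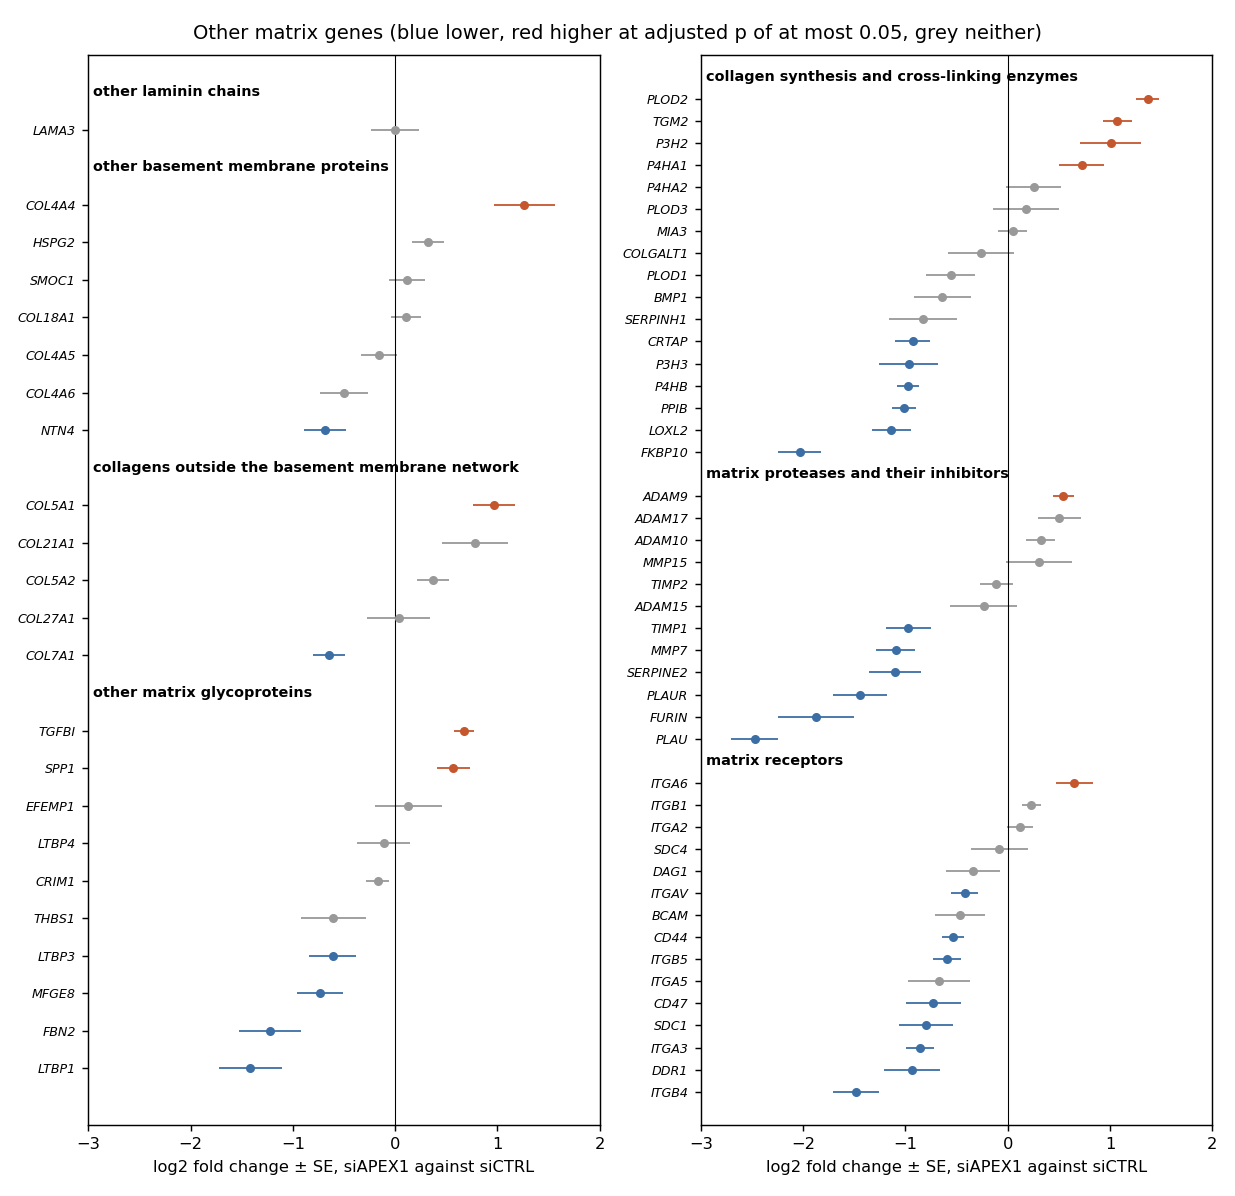
Log2 fold change, siAPEX1 against siCTRL, with its SE (horizontal axis) for the other matrix genes tested, grouped by list and without the genes not reported here. Red marks genes that were higher and blue genes that were lower at an adjusted p of at most 0.05, and grey genes that were neither, with PLOD2 at 1.37 and PLAU at -2.48 as the extremes.

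Among the other laminin chains, LAMA3, the alpha chain that joins LAMB3 in laminin-332, had 21, 24, 25 and 20 counts in the siCTRL libraries and 18, 12, 13 and 14 in the siAPEX1 libraries. Its log2 fold change was -0.00 (SE 0.235, adjusted p = 0.995 in edgeR), beside -1.48 for LAMB3. The scaled groups of LAMA3 overlapped and those of LAMB3 did not.

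Among the other basement membrane proteins 7 of 24 were tested, 1 rose, 1 fell and 5 did neither, with a median of 0.11. COL4A4, a collagen IV chain of specialised basement membranes, had 7, 9, 14 and 7 against 10, 16, 13 and 18 counts and rose by 1.26 (SE 0.297, adjusted p = 8.71e-04 in edgeR). NTN4, a netrin that binds laminin, fell by 0.69 (SE 0.206, adjusted p = 0.00853 in edgeR), and without siAPEX1 replicate 1 its log2 fold change was -0.50 (adjusted p = 0.0754 in edgeR). Of the collagens outside this network 5 of 31 were tested, with a median of 0.37. COL5A1, a chain of the fibrillar collagen V, rose by 0.97 (SE 0.205, adjusted p = 2.45e-04 in edgeR), and COL7A1, the collagen of anchoring fibrils that bind laminin-332, fell by 0.65 (SE 0.156, adjusted p = 0.00118 in edgeR).

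Of the other matrix glycoproteins 10 of 33 were tested, and 2 rose, 4 fell and 4 did neither, with a median of -0.39. LTBP1, which holds latent TGF-beta in the matrix, fell by 1.41 (SE 0.304, adjusted p = 3.10e-04 in edgeR). FBN2, a microfibril protein, fell by 1.22 (SE 0.302, adjusted p = 0.00152 in edgeR). MFGE8, a secreted integrin ligand, fell by 0.73 (adjusted p = 0.00923 in edgeR), but was at an adjusted p of 0.0677 with DESeq2 and at -0.63 (adjusted p = 0.051 in edgeR) without siAPEX1 replicate 3. TGFBI, a TGF-beta-induced matrix protein with 218 to 291 counts per library, rose by 0.67 (SE 0.0977, adjusted p = 5.25e-07 in edgeR). The other gene that rose was SPP1, osteopontin, with 0.57 (adjusted p = 0.00605 in edgeR), named after its value was seen, and with library size alone it was at 0.23 and not called. The other gene that fell, named likewise, was LTBP3 (-0.61), whose call was lost in 7 of 15 alternatives.

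The enzymes that modify, fold and cross-link collagen were the list with most genes tested, 17 of 31. Of these 4 rose, 6 fell and 7 did neither, with a median of -0.56. FKBP10, a prolyl isomerase of the endoplasmic reticulum, had 55, 65, 73 and 54 against 10, 6, 13 and 9 counts and fell by 2.03 (SE 0.212, adjusted p = 2.77e-10 in edgeR). LOXL2, which cross-links collagen IV, fell by 1.14 (SE 0.190, adjusted p = 6.67e-06 in edgeR). PLOD2, the lysyl hydroxylase of collagen telopeptides, had 80, 69, 75 and 69 against 105, 116, 128 and 132 counts and rose by 1.37 (SE 0.117, adjusted p = 1.35e-12 in edgeR). TGM2, the transglutaminase that cross-links fibronectin and other matrix proteins, rose by 1.07 (SE 0.141, adjusted p = 7.23e-08 in edgeR). The other genes that rose, named after their values were seen, were P3H2 with 1.01 and P4HA1 with 0.73, both hydroxylases of proline. Neither was called with library size alone (0.67 and 0.38), P3H2 not without siAPEX1 replicate 2, and P4HA1 not without siAPEX1 replicate 3. The other genes that fell, also named after their values were seen, were PPIB (-1.02), P4HB (-0.98), P3H3 (-0.97) and CRTAP (-0.93). Of these only P3H3 lost its call in an alternative, without siAPEX1 replicate 4.

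Of the matrix proteases and their inhibitors 13 of 36 were tested, and 2 rose, 6 fell and 5 did neither, with a median of -0.24. PLAU, the protease urokinase that activates plasminogen, had 56, 61, 69 and 62 against 7, 4, 11 and 6 counts and fell by 2.48 (SE 0.230, adjusted p = 1.42e-11 in edgeR). PLAUR, its receptor, fell by 1.44 (SE 0.265, adjusted p = 3.26e-05 in edgeR). SERPINE2, an inhibitor of urokinase and thrombin, fell by 1.10 (SE 0.255, adjusted p = 7.76e-04 in edgeR). FURIN, a protease that matures secreted proteins, had 31, 17, 23 and 17 against 8, 3, 2 and 2 counts and fell by 1.87 (SE 0.372, adjusted p = 1.04e-04 in edgeR). PLAU, PLAUR, SERPINE2 and FURIN passed the filter only through their siCTRL libraries. ADAM9, one of the genes that rose, named after its value was seen, was at 0.54 (adjusted p = 4.54e-05 in edgeR), and was not called with library size alone (0.20). The other genes that fell, named likewise, were MMP7 (-1.10) and TIMP1 (-0.97), and both kept their call in every alternative in which they were tested.

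Of the matrix receptors 15 of 32 were tested, and 1 rose, 8 fell and 6 did neither, with a median of -0.54. ITGB4, the beta subunit of the integrin that binds laminin-332, had 55, 50, 45 and 36 against 10, 13, 10 and 9 counts and fell by 1.48 (SE 0.222, adjusted p = 9.12e-07 in edgeR). ITGA3, the alpha subunit of another laminin receptor, fell by 0.86 (SE 0.139, adjusted p = 3.98e-06 in edgeR), and DDR1, a collagen receptor kinase, fell by 0.94 (SE 0.271, adjusted p = 0.0066 in edgeR). SDC1, a syndecan, fell by 0.80 (adjusted p = 0.017 in edgeR). Its call was lost with DESeq2 and without siCTRL replicate 3 (-0.65), siAPEX1 replicate 2 (-0.72) or siAPEX1 replicate 3 (-0.61, adjusted p = 0.109 in edgeR). ITGA6, the alpha partner of ITGB4, was the gene that rose, with 0.65 (adjusted p = 0.00495 in edgeR). It was named after its value was seen and was not called with library size alone (0.31). The other genes that fell, named likewise, were CD47 (-0.73), ITGB5 (-0.59), CD44 (-0.54) and ITGAV (-0.42). ITGB5 and CD44 kept their call in every alternative, and CD47 and ITGAV lost it in some. ITGA5, the alpha subunit of the fibronectin receptor, also named after its value was seen, had 13, 18, 22 and 15 against 7, 5, 9 and 6 counts, with a log2 fold change of -0.67 (SE 0.305, adjusted p = 0.0906 in edgeR).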

How the data were processed

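RNA-seq counts of 8 libraries of A549 cells were used, 4 labelled siCTRL and 4 labelled siAPEX1. Per the study's methods, the authors trimmed single-end reads with Cutadapt, mapped them to GRCh38 with STAR 2.5.3a and used its gene counting mode with Ensembl genes. The release and the strand of counting are not given in the sources used here. The deposited values are raw counts. Of 58302 genes, 57532 matched GENCODE 44. The members and the lists of other genes were chosen with earlier results of these data known.

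Counts were fitted with edgeR 4.0.16 (R 4.3.3), TMM factors and the quasi-likelihood test. Low counts were filtered with filterByExpr, leaving 5368 genes with 97.5% to 98.1% of the counts. This filter turns 10 counts at the median library size into a CPM, taken before TMM factors. A gene must reach it in as many libraries as a group holds, with at least 15 counts in all. p-values were adjusted over all of these by Benjamini-Hochberg, and genes were called at 0.05. The SE is the log2 fold change divided by the square root of F. The common biological coefficient of variation was 0.0832. log2 CPM carry a prior count of 2, ratios a pseudocount of 0.5. The genes named are all members, APEX1, in each list the 4 called genes with the largest absolute log2 fold change (with none called, the tested gene with the highest mean CPM), and the 5 protein-coding genes with the highest Pearson's r with FN1 and with LAMC1. LAMA3, outside this rule, was added as the partner chain of LAMB3 after its value was seen, and other added names are marked in the text. Some genes of the lists are counted but not reported here by name.

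TMM factors lay between 1.10 and 1.14 in siCTRL and between 0.873 and 0.919 in siAPEX1 libraries. No libraries of a group agreed within sampling noise (chi-square per degree of freedom 2.12 to 4.32). Alternatives were scaling by RLE or by library size alone, TMM computed on protein-coding genes, every gene with at least 1 count, at least 10 counts in every library, DESeq2 1.42.0, a block for the replicate number, and leaving out single libraries in turn. The programs were tested on simulated data. Motifs were sought in RefSeq promoters of GRCh38.p14.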

Additional observations from a re-analysis of the deposited data

Results flagged for a closer look

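In 66 groups of 4 libraries, those of the members and of the other genes named by rule, and the ratios of members, 5 had a library whose distance to the others passed Dixon's critical value, as a share of the range. Chance flags about 1 group in 20. COL4A1 stood at 13.8 CPM in siAPEX1 replicate 2 and at 4.77 to 5.77 CPM in the other siAPEX1 libraries. AGRN stood at 14.0 CPM in siCTRL replicate 2 and at 7.41 to 8.05 CPM in the others. FBN2 stood at 6.59 CPM in siAPEX1 replicate 1 and at 4.77 to 5.05 CPM in the others. TGFBI stood at 146 CPM in siCTRL replicate 1 and at 121 to 123 CPM in the others. TGM2 stood at 58.5 CPM in siAPEX1 replicate 1 and at 48.3 to 48.7 CPM in the others. COL4A1 and AGRN lie at the depth where 1 library moves the group mean, and the 3 other genes were called on the same side without each of these libraries.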

How the results depend on the processing

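FN1, LAMC1 and, where tested, LAMB3 kept their direction and their side of the threshold under all 15 alternatives. FN1 and LAMC1 set the choice of members on this contrast, and LAMB3 passed the filter only through its siCTRL libraries. The lasting calls of these genes are therefore a description, and nothing is read from them. With library size alone the log2 fold change was -2.21 for FN1 and 1.13 for LAMC1, 1 member was higher, and 6 other matrix genes were higher. By construction this setting leaves out the TMM factors, which differ between the groups. The number of members higher was also 1 with every gene of at least 1 count, with at least 10 counts in every library and with DESeq2. With at least 10 counts in every library 37 other matrix genes were tested, and 9 were higher and 14 lower. Leaving out 1 library at a time gave 1 to 3 members higher, 2 or 3 lower, 11 to 14 other matrix genes higher and 24 to 29 lower. The log2 fold change of FN1 then lay between -1.91 and -1.81 and that of LAMC1 between 1.38 and 1.55. The log2 ratio differed by -3.41 to -3.27 for FN1 to LAMC1, by -1.64 to -1.35 for LAMB1 to LAMC1 and by -0.28 to 0.40 for COL4A2 to COL4A1. Over all genes 1703 were called, 1123 with DESeq2. The cause of the differences between tools and filters was not tested. With 1 to 23 reads per library, depth limits LAMB2, LAMB3 and COL4A1 most.

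The deviations of libraries with the same replicate number had correlations between -0.0373 and -0.00348, so no shared effect of the number was seen. Whether libraries with the same number were handled together is not stated by the labels. With the replicate number as a block, 2 members were higher and 3 lower, as without it, 11 other matrix genes were higher and 26 lower, and 1595 genes were called in all.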
